A study of Mus musculus with 20 samples.

Results

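The mitosis and cell division genes are 44 genes, chosen by name, whose products condense the chromosomes, build the spindle, hold back and then release chromosome separation, and part the daughter cells. Each gene was read through the array probe with the highest mean log2 signal over all arrays, out of 32053 genes named on the array, and 40 of the 44 had a probe bright enough to be tested. The RNA came from the frozen diaphragm of female C57Bl/6 mice, which had been 8 weeks old when material was injected into the pleural cavity and were examined 12 weeks later. Control mice received 100 µL of saline with 0.5% BSA, which was also the carrier of the fibers. SFA mice received short amosite asbestos, made by grinding in a ball mill, and LFA mice received a preparation of the same amosite enriched for long fibers, both at 25 µg per mouse. NTS and NTL mice received short and long carbon nanotubes at 5 µg per mouse, so that asbestos and nanotubes differed in mass as well as in kind. Each of the 5 groups held 4 mice with 1 array each, and the question of the design is which genes respond to long fibers, to short fibers, and to both materials.

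As background, a cell enters mitosis when cyclin A and cyclin B activate the kinase CDK1, aided by the Polo and Aurora kinases. The spindle assembly checkpoint then holds the cell until every kinetochore is attached, and the anaphase-promoting complex destroys cyclin B and securin to let the sister chromatids part. Most of these genes are silent in resting cells, where the DREAM complex represses them. Late in the cycle they are transcribed under FOXM1 and B-MYB. Their promoters often hold CHR elements, through which these factors act, and CCAAT boxes, the sites of NF-Y. Adult diaphragm is mainly skeletal muscle, whose fibers no longer divide, so most of these transcripts are taken to mark the small share of cells in cycle.

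The tissue label was borne out by the skeletal muscle markers, whose mean log2 level lay 6.64 to 8.29 above the 75th percentile of the array on all 20 arrays. Between 53.0% and 68.1% of the 59305 spots of an array were well above background and 0 were saturated. The 75th percentile of signal, a measure of array brightness, ran from 292 to 991, with a median of 573 in control, 551 in SFA, 715 in LFA, 454 in NTS, and 810 in NTL. Liver transcripts were carried unequally, with a mean log2 level of the liver list from -2.58 to 7.59 over the arrays, highest in NTS replicates 3 and 4. The arrays were scanned on 3 slides, each holding 3 or more of the groups, and slide and scan cannot be told apart. All levels below are log2 intensities relative to the 75th percentile of the same array, so they compare arrays for a given probe and not probes with each other.

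RefSeq (GRCm38.p6) gave the promoter of 39 of the 44 genes, from 250 bases before to 50 after the gene start. The CHR element, searched as TTTGAA or TTCGAA on both strands, was present in 29 of the 39 (74.4%), against 19.4% of 27025 promoters. It lay within 50 bases of the start in 27 (69.2%), against 5.29% of all promoters. CCAAT boxes, searched as CCAAT on both strands, were present in 29 (74.4%, against 37.9%), and 21 promoters had at least 2 of them (53.8%, against 12.2%). The E2F element, searched as GGCGGGA or GGCGCGA on both strands, was less frequent, in 10 promoters (25.6%, against 13.9%). Both a CHR element and at least 2 CCAAT boxes stood in 18 (46.2%, against 2.43%). Those 6 of the 18 with the highest mean signal are shown from 170 bases before to 30 after the start, 5′ to 3′ on the gene's strand, because they show what a promoter with both elements looks like. The other CHR element and CCAAT box of Kif22 lie upstream of the stretch shown, as does a CCAAT box of Mki67. CHR elements and CCAAT boxes are in capitals in either orientation, so that ATTGG is a CCAAT box and TTCAAA a CHR element read on the other strand. In the Cdca8 promoter a CHR element and a CCAAT box overlap.
Mki67 (chr7:135716350-135716549, minus strand): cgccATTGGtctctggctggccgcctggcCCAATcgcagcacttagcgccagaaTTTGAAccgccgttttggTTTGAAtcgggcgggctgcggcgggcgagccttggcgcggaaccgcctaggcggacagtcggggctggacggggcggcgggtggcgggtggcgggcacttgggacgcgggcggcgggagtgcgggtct
Spc25 (chr2:69206184-69206383, minus strand): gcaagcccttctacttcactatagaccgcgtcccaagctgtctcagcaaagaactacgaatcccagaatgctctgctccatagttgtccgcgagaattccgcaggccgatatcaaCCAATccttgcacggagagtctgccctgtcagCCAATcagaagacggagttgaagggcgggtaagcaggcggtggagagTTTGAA
Cdc20 (chr4:118437314-118437513, minus strand): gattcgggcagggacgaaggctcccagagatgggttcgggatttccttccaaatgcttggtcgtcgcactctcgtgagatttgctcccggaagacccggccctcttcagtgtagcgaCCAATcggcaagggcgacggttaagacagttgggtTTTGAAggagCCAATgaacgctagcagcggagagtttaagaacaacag
Ccnb2 (chr9:70421525-70421724, minus strand): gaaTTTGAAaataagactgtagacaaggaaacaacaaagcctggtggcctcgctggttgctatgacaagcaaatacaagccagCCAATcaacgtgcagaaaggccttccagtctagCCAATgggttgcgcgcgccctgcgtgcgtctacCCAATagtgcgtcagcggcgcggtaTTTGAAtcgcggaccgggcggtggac
Cdca8 (chr4:124936888-124937087, minus strand): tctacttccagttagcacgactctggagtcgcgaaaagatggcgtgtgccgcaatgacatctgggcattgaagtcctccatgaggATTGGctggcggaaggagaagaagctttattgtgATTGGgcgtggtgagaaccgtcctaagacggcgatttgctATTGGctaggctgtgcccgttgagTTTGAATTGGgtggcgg
Kif22 (chr7:127042391-127042590, minus strand): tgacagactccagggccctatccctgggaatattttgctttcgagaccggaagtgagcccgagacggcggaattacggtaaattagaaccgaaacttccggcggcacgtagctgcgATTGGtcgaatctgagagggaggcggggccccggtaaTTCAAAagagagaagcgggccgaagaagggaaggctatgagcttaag
The promoter of Pttg1, chosen after its values were seen because its changes on the arrays had the opposite sign, held 0 CHR elements and 0 CCAAT boxes in the window searched. The same was true of Birc5, Mad2l1, Melk, Nuf2, and Nusap1, whose changes were above 0 in both long-fiber groups, and Melk had the largest change of all. Hmmr, with changes near 0, had 1 CHR element and 5 CCAAT boxes.
Pttg1 (chr11:43425952-43426151, minus strand): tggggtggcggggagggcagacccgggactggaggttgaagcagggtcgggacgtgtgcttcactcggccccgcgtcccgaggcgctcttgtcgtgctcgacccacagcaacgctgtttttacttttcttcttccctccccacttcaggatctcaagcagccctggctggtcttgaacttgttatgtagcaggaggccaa

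Many of the sites had a similar place along the promoters. Of 40 CHR sites in the 39 promoters, 27 began between 25 bases before and 50 after the start, and of 70 CCAAT sites 45 began in the 100 bases before it. The sites of Mki67 were exceptions, since neither of its CHR elements was within 50 bases of the start and its CCAAT boxes began more than 100 bases before it. Another list of mitosis genes had a similar share of promoters with a CHR element (71.4%), whereas genes of DNA synthesis had 20% and subunits of the anaphase-promoting complex 8.33%. Among the tested genes with a promoter, the median log2 change was 1.34 in LFA and 1.49 in NTL for the 26 with a CHR element and 1.68 and 1.5 for the 10 without. A match of letters is a description of the window and was not tested as a site.

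**Figure D1:**
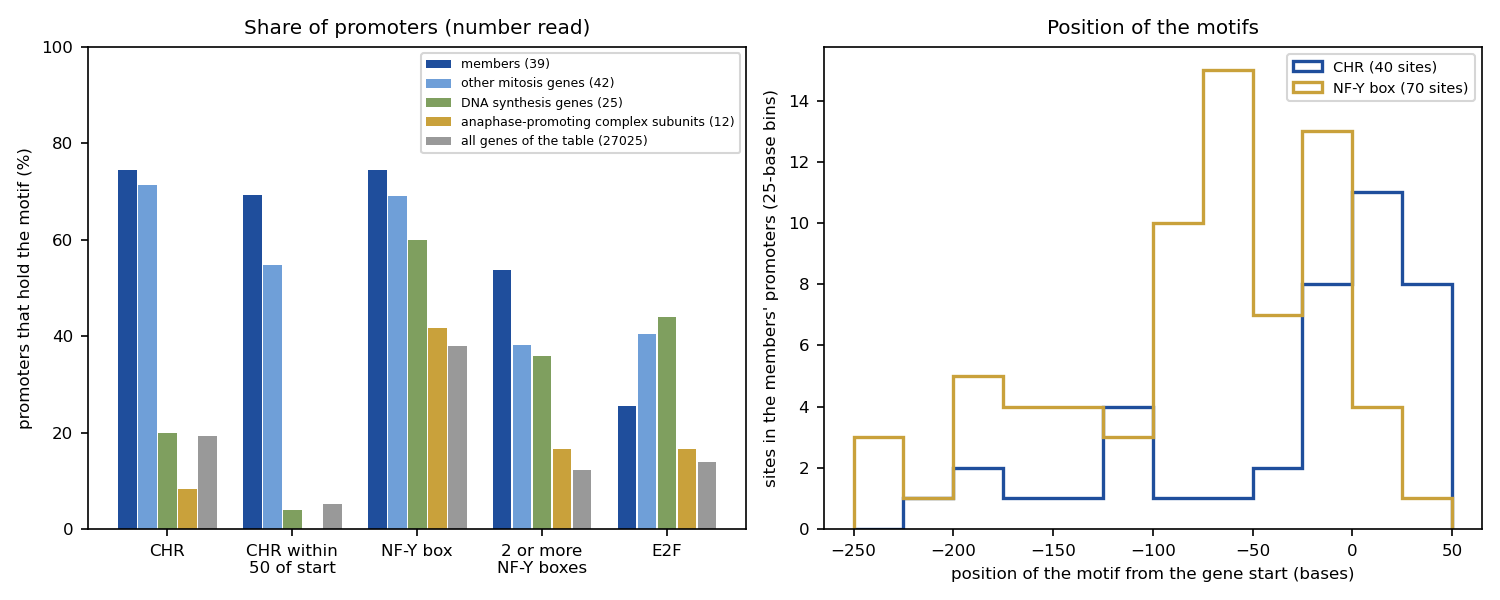
Left, share of promoters (%) that hold a CHR element, a CHR element within 50 bases of the start, a CCAAT box (labelled NF-Y box), at least 2 CCAAT boxes, or an E2F element, for the 39 mitosis and cell division genes, 3 other lists and all 27025 promoters. Right, number of CHR and CCAAT sites of the 39 promoters by distance from the gene start in bases, with CHR sites gathered around the start and CCAAT sites upstream of it.

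Long fibers of both kinds went with higher levels of many mitosis and cell division genes. In LFA 17 of the 40 tested genes were called higher than in control and 0 lower, where 2.21% of the 36930 probes tested were called higher and 1.75% lower. In NTL 21 of 40 were called higher and 0 lower, against 3.64% and 3.16% of all probes. A call here means that the change was 2-fold or more and that limma's p, adjusted by the Benjamini-Hochberg method over all tested probes, was under 0.05. The median log2 change of the genes was 1.37 in LFA and 1.49 in NTL, while all probes had medians of -0.28 and -0.25. With normexp background correction the medians of the genes were 0.82 and 0.76, and 14 genes were called in NTL. A fit to only the groups compared called 9 genes in LFA. These counts stand without the share of all probes called under the same setting. Both comparisons use the same 4 control arrays, so they are not independent of each other. In RNA of whole tissue, more cells in division and more of these transcripts per cell cannot be told apart.

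Calls depended on the control arrays as well as on the treated ones. Averaged over the 40 genes and set relative to the control mean, control replicate 1 stood at -0.50 and control replicates 2, 3, and 4 at -0.14, 0.56, and 0.09. The LFA arrays stood at 0.94, 1.46, 1.64, and 1.22, and the NTL arrays at 1.26, 1.91, 0.86, and 1.48, all above every control array. Control replicate 1 lay below its group's mean for all 40 genes and control replicate 3 above it for 38, where 41% and 44% of all probes were above the mean. Without control replicate 1 only 7 genes were called in LFA (Ccna2, Melk, Bub1, Prc1, Kif20a, Ect2, and Anln), and without LFA replicate 2 the count was 8, the same 7 and Ccnb1. Without NTS replicate 4, which enters the shared estimate of spread, it was 22. Counts in NTL ranged from 15 to 25 when single arrays were left out. These counts stand without the share of all probes called with the same arrays left out.

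**Figure D2:**
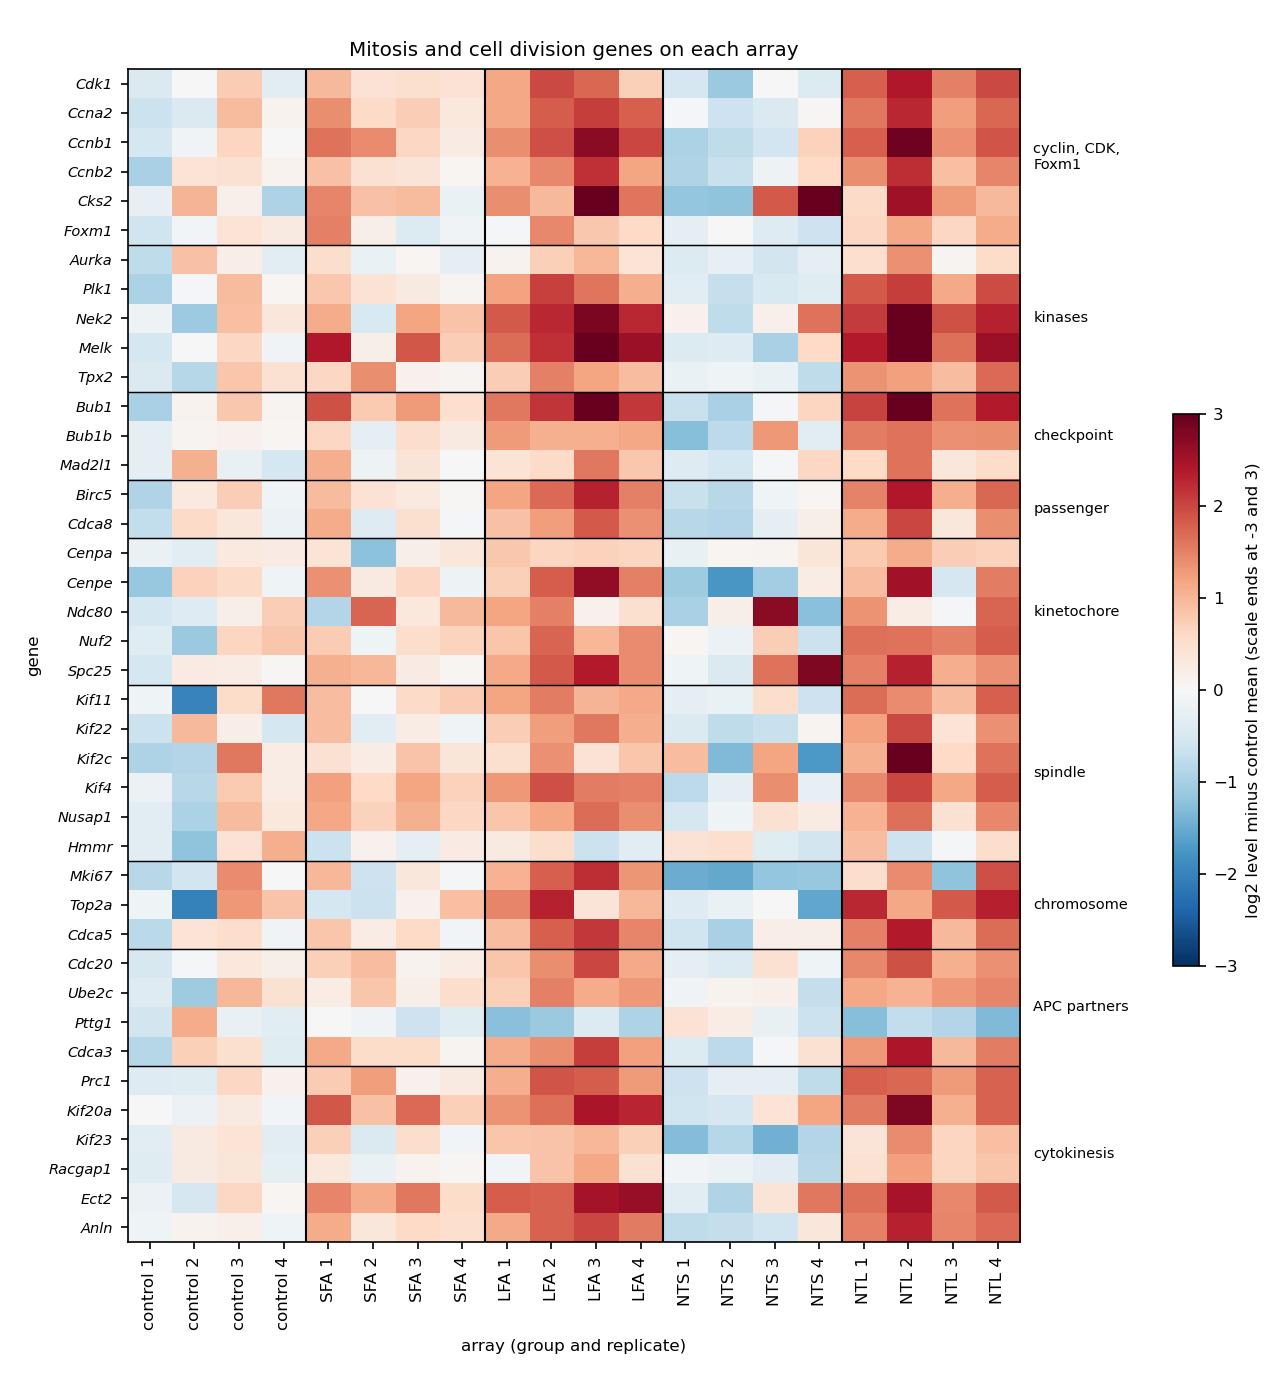
Log2 level of each of the 40 tested genes (rows, ordered by role) on each of the 20 arrays (columns, by group and replicate) minus the mean of the 4 control arrays, on a color scale from -3 to 3. Most rows are raised across the LFA and NTL columns, and Pttg1 and Hmmr are not.

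The slides held different sets of groups. Within slides the median difference between LFA and control was 1.49 on slide 1, 1.37 on slide 2, and 1.01 on slide 3, and that between NTL and control was 1.70 on slide 2 and 0.93 on slide 3. With slide as a block 13 genes were called in LFA and 18 in NTL. Most macrophage markers moved with the same groups: 7 of 10 were called higher in LFA and 7 of 10 in NTL. Their mean log2 level was 1.25 to 1.51 in control, 2.24 to 3.35 in LFA, and 3.13 to 3.27 in NTL. Not every macrophage marker rose: the lowest log2 change of the list was -1.10 for LFA, while for NTL it was -0.60. In either comparison 0 of these markers were called lower. Of 10 skeletal muscle markers, 2 were called lower in LFA and 4 in NTL, with median log2 changes of -1.02 and -1.12. Of other marker lists, 2 of 8 for B and plasma cells were called higher in LFA and 2 in NTL, 1 and 4 of 8 for fibroblasts and matrix, and 0 and 1 of 8 for T cells, while granulocyte, mesothelium, endothelium, and liver lists gave 0 calls. Adipocyte markers were called lower in 1 of 6 in LFA and 3 of 6 in NTL, with median log2 changes of -0.83 and -1.20. Array brightness was also higher in LFA and NTL, and with brightness as a covariate 15 and 16 genes were called. This count and that with slide as a block stand without the share of all probes called under the same setting. The part of these cell types in the result was not tested.

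Of the cyclins, the mitotic CDK, and their partners, 4 of 6 were called higher in LFA and 4 of 6 in NTL. Ccnb2, which encodes cyclin B2, read -1.70, -0.31, -0.25, and -0.61 in control, 0.33, 0.73, 1.48, and 0.47 in LFA, and 0.68, 1.5, 0.19, and 0.75 in NTL. Its levels were 0.16, -0.26, -0.33, and -0.65 in SFA and -1.63, -1.38, -0.88, and -0.12 in NTS. Every LFA and NTL array thus lay above the 12 other arrays, while SFA and NTS overlapped control. The log2 change was 1.47 (SE 0.39; adjusted p = 0.0408) in LFA and 1.5 (SE 0.39; adjusted p = 0.0252) in NTL by limma, but the LFA call was lost under 14 of 31 alternatives. Ccna2, cyclin A2, changed by 1.71 and 1.70, Ccnb1, the main cyclin B, by 2.01 and 1.99, and Cdk1, their kinase, by 1.40 and 1.92. With normexp background correction Cdk1 was at 0.68 and 0.99, under the 2-fold minimum. Cks2, a small CDK-binding subunit, at 1.78 and 1.35, and Foxm1, the transcription factor of the late cycle, at 0.70 and 0.88, did not pass the test.

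Among the mitotic kinases and their partner Tpx2, 3 of 5 were called in LFA and 4 of 5 in NTL. Plk1, the Polo kinase that drives entry into and exit from mitosis, read -2.32, -1.42, -0.41, and -1.31 in control, -0.17, 0.68, 0.24, and -0.28 in LFA, and 0.48, 0.71, -0.23, and 0.58 in NTL. In SFA it read -0.55, -0.94, -1.09, and -1.28 and in NTS -1.68, -2.05, -1.82, and -1.72. The LFA and NTL arrays were above all other arrays, by the narrowest margin over control replicate 3. Its log2 changes were 1.48 (SE 0.34; adjusted p = 0.0213) and 1.75 (SE 0.34; adjusted p = 0.00423) by limma. Melk, a kinase of proliferating cells, had the largest change of the 40 genes in both comparisons, 2.45 (SE 0.51; adjusted p = 0.0136) in LFA and 2.56 (SE 0.51; adjusted p = 0.00529) in NTL. It read -5.0, -4.48, -3.84, and -4.58 in control, -2.81, -2.28, -1.11, and -1.89 in LFA, and -2.09, -0.84, -2.82, and -1.90 in NTL. Levels in SFA were -2.07, -4.30, -2.60, and -3.74, those of replicates 1 and 3 within the long-fiber range, and in NTS -4.88, -4.86, -5.43, and -3.88. Every LFA and NTL array lay above every control array, and Melk was well above background on 3 of 4 control arrays and 1 of 4 NTS arrays. With normexp background correction its values were 1.02 and 1.07, and the LFA call was lost. Nek2, a centrosome kinase, rose by 2.30 in LFA and 2.42 in NTL, though with normexp background correction by 0.50 and 0.54, no longer called. It was well above background on 2 of 4 control arrays. Tpx2, which activates Aurora A on the spindle, was at 1.09 in LFA (adjusted p = 0.0842, limma) and rose by 1.30 in NTL (adjusted p = 0.0337, limma), a call lost under 12 of 31 alternatives. Aurka itself was at 0.56 and 0.62 without passing.

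The spindle assembly checkpoint was represented by 3 tested genes, of which 1 was called in LFA and 2 in NTL. Mad2l1, the checkpoint protein that blocks CDC20, read -0.96, 0.40, -0.89, and -1.20 in control, -0.26, -0.09, 0.92, and 0.15 in LFA, and -0.07, 0.97, -0.32, and -0.10 in NTL. Its SFA levels were 0.43, -0.81, -0.28, and -0.67 and its NTS levels -1.04, -1.19, -0.69, and -0.03. Control replicate 2 lay within the range of the long-fiber arrays, and the changes of 0.84 (SE 0.40; adjusted p = 0.213) and 0.78 (SE 0.40; adjusted p = 0.253) did not pass limma's test. Bub1, a kinetochore kinase, rose by 2.24 in LFA and 2.33 in NTL, from a control group in which it was well above background on 2 of 4 arrays. With normexp background correction both values were 0.64 and no longer called. Bub1b, the checkpoint protein BUBR1, was at 1.14 in LFA (adjusted p = 0.0859, limma) and rose by 1.48 in NTL (adjusted p = 0.0234, limma). With normexp background correction the NTL value was 0.76, under the 2-fold minimum, and the call was lost under 6 of 31 alternatives. Ttk, the kinase that recruits these proteins, was not well above background on any array.

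Of the chromosomal passenger complex, Aurkb, its kinase, was likewise not well above background on any array, whereas Birc5 (survivin) and Cdca8 (borealin), the subunits that bring it to the centromere, were. Birc5 read -0.80, 0.40, 0.83, and -0.02 in control, 1.29, 1.80, 2.41, and 1.62 in LFA, and 1.58, 2.50, 1.20, and 1.83 in NTL. Its levels were 1.05, 0.53, 0.39, and 0.14 in SFA and -0.57, -0.73, -0.02, and 0.16 in NTS. No LFA or NTL array overlapped any other array, although SFA replicate 1 came near. It rose by 1.68 (SE 0.37; adjusted p = 0.0171) and 1.68 (SE 0.37; adjusted p = 0.00932) on the log2 scale by limma. Cdca8 had changes of 1.34 and 1.21 that did not pass (adjusted p = 0.0616 and 0.0709, limma).

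Of the centromere and kinetochore genes 0 of 5 were called in LFA and 1 of 5 in NTL, although the values of 3, Spc25, Cenpe, and Nuf2, were above 2-fold in LFA. Spc25, a subunit of the NDC80 complex that grips the spindle microtubules, read -1.15, -0.37, -0.41, and -0.58 in control, 0.52, 1.22, 1.76, and 0.78 in LFA, and 0.88, 1.69, 0.47, and 0.75 in NTL. In SFA it read 0.45, 0.37, -0.37, and -0.56 and in NTS -0.75, -1.06, 0.99, and 2.17. All LFA and NTL arrays were above all control arrays, and NTS replicate 4 was the highest array of the study. The changes were 1.70 (SE 0.54; adjusted p = 0.0765) and 1.57 (SE 0.54; adjusted p = 0.0829) by limma, and the SE is that of a fit in which the NTS spread enters. NTS replicates 3 and 4, the arrays highest in liver transcripts, also stood apart for Cks2, at -1.53 and 0.21 against -4.52 and -4.56 in NTS replicates 1 and 2. LFA replicates 1 and 3 were rich in liver transcripts too, 6.18 and 6.40 above the control mean of that list. They read -1.97 and -0.19 for Cks2, against -2.38 and -1.76 in LFA replicates 2 and 4. For Spc25 they were the lowest and the highest LFA array. The part of liver transcripts in these values was not tested. Nuf2, another NDC80 subunit, rose in NTL by 1.65 and was at 1.25 in LFA. It was well above background on 3 of 4 control arrays, and with normexp background correction the values were 0.38 and 0.20 and the NTL call was lost. Cenpe, a kinetochore motor, was at 1.67 and 1.12, Ndc80 at 0.83 and 0.81, and Cenpa, the centromeric histone H3, at 0.70 and 0.83, none called. For Ndc80 the NTL value came to -8.57e-05 with normexp background correction. Cenpf was well above background on 2 arrays, at -3.47 in control replicate 3 and -2.85 in LFA replicate 3, and was not tested.

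Spindle motors and microtubule-binding genes gave 1 of 6 calls in each comparison, that of Kif4, a chromosome-bound kinesin, at 1.57 and 1.6. This gene was well above background on 2 of 4 control arrays, its values were 0.20 and 0.13 with normexp background correction, and the LFA call was lost under 12 of 30 alternatives. Kif22, a kinesin that pushes chromosome arms toward the spindle equator, read -1.30, 0.32, -0.45, and -1.19 in control, 0.08, 0.59, 0.93, and 0.44 in LFA, and 0.56, 1.32, -0.25, and 0.72 in NTL. Levels in SFA were 0.28, -1.0, -0.44, and -0.77 and in NTS -1.09, -1.43, -1.31, and -0.58. Control replicate 2 lay within the range of the long-fiber arrays, and the changes of 1.17 (SE 0.39; adjusted p = 0.088) and 1.24 (SE 0.39; adjusted p = 0.0585) did not pass limma's test. Kif11, the motor that separates the spindle poles, was at 1.22 and 1.45, Nusap1, a microtubule bundler, at 1.27 and 1.15, and Kif2c, a microtubule depolymerase, at 0.78 and 1.94. The LFA value of Kif2c became -0.19 with normexp background correction. Hmmr, a hyaluronan receptor that also binds the spindle, was at -0.05 and 0.20, and its sign was the same in only 24 of 31 alternatives in LFA and 28 of 31 in NTL.

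Mki67, which encodes Ki-67, the common marker of cycling cells and a coat of mitotic chromosomes, did not pass the test in either long-fiber group. It read -0.57, -0.32, 1.68, and 0.27 in control, 1.30, 2.07, 2.47, and 1.6 in LFA, and 0.78, 1.69, -0.94, and 2.19 in NTL. Its levels were 1.27, -0.35, 0.60, and 0.24 in SFA and -1.23, -1.27, -0.88, and -0.87 in NTS. Control replicate 3 lay within the LFA range and NTL replicate 3 below all control arrays, and the 4 NTS arrays and NTL replicate 3 were the lowest of the study. The changes were 1.59 (SE 0.57; adjusted p = 0.108) in LFA and 0.67 (SE 0.57; adjusted p = 0.528) in NTL by limma. The NTL value was 1.29 without NTL replicate 3 and 0.25 without NTL replicate 4. Top2a, the topoisomerase that untangles sister chromatids, read -3.93, -5.82, -2.50, and -2.93 in control, -2.32, -1.49, -3.40, and -2.81 in LFA, and -1.53, -2.64, -1.95, and -1.46 in NTL. In SFA it read -4.32, -4.43, -3.67, and -2.88 and in NTS -4.17, -4.0, -3.78, and -5.37. Control replicate 3 overlapped both long-fiber groups, and the changes were 1.29 (SE 0.61; adjusted p = 0.203) and 1.90 (SE 0.61; adjusted p = 0.0613) by limma. Cdca5, sororin, which protects sister chromatid cohesion, did pass, at 1.57 in LFA and 1.64 in NTL. Ncapg, a condensin subunit, was not well above background on any array.

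Around the anaphase-promoting complex, its activator Cdc20 rose by 1.34 in LFA and 1.45 in NTL. Ube2c, the ubiquitin-conjugating enzyme of the complex, was at 1.16 in LFA (adjusted p = 0.0649, limma) and rose by 1.24 in NTL (adjusted p = 0.0381, limma), where the call was lost under 12 of 31 alternatives. Cdca3, which triggers degradation of the mitosis inhibitor WEE1, rose by 1.46 and 1.56, but its LFA call was lost under 16 of 31 alternatives. Pttg1, securin, which inhibits the protease that cuts cohesin, had values of the opposite sign and passed the test in neither long-fiber group. It read 5.35, 7.03, 5.69, and 5.57 in control, 4.65, 4.79, 5.50, and 4.99 in LFA, and 4.64, 5.17, 5.04, and 4.58 in NTL. Levels were 5.92, 5.81, 5.29, and 5.54 in SFA and 6.35, 6.13, 5.68, and 5.26 in NTS. All NTL arrays were below all control arrays, and LFA replicate 3 overlapped control. The changes were -0.93 (SE 0.34; adjusted p = 0.113) and -1.06 (SE 0.34; adjusted p = 0.0639) by limma. Pttg1's other probe was at -0.77 (adjusted p = 0.0924, limma) and -0.87 (adjusted p = 0.0492, limma), under the 2-fold minimum. Over all arrays the mean log2 level was 5.45 for the probe read and -1.47 for the other.

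Cytokinesis genes gave 4 of 6 calls in each comparison. Anln, anillin, which scaffolds the contractile ring, read -1.57, -1.34, -1.28, and -1.56 in control, -0.31, 0.34, 0.56, and 0.11 in LFA, and 0.07, 0.87, 0.02, and 0.26 in NTL. In SFA it read -0.33, -1.10, -0.84, and -0.93 and in NTS -2.19, -2.15, -2.04, and -1.10. Control arrays varied little (SD 0.15, n = 4), and every LFA and NTL array was above the other 12 arrays, LFA replicate 1 only just above SFA replicate 1. Anln rose by 1.61 (SE 0.28; adjusted p = 0.00451) in LFA and 1.74 (SE 0.28; adjusted p = 0.00119) in NTL by limma, the smallest adjusted p of the 40 genes in each comparison, and neither call was lost under any of the 31 alternatives. Prc1, which bundles the central spindle, rose by 1.52 and 1.63, and Kif20a, a kinesin of the central spindle, by 1.93 and 1.80. Ect2, the exchange factor that activates RhoA at the cleavage site, rose by 2.18 and 1.85. Kif23, at 0.84 in both, and Racgap1, at 0.60 and 0.79, the subunits of centralspindlin, were not called.

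**Figure D3:**
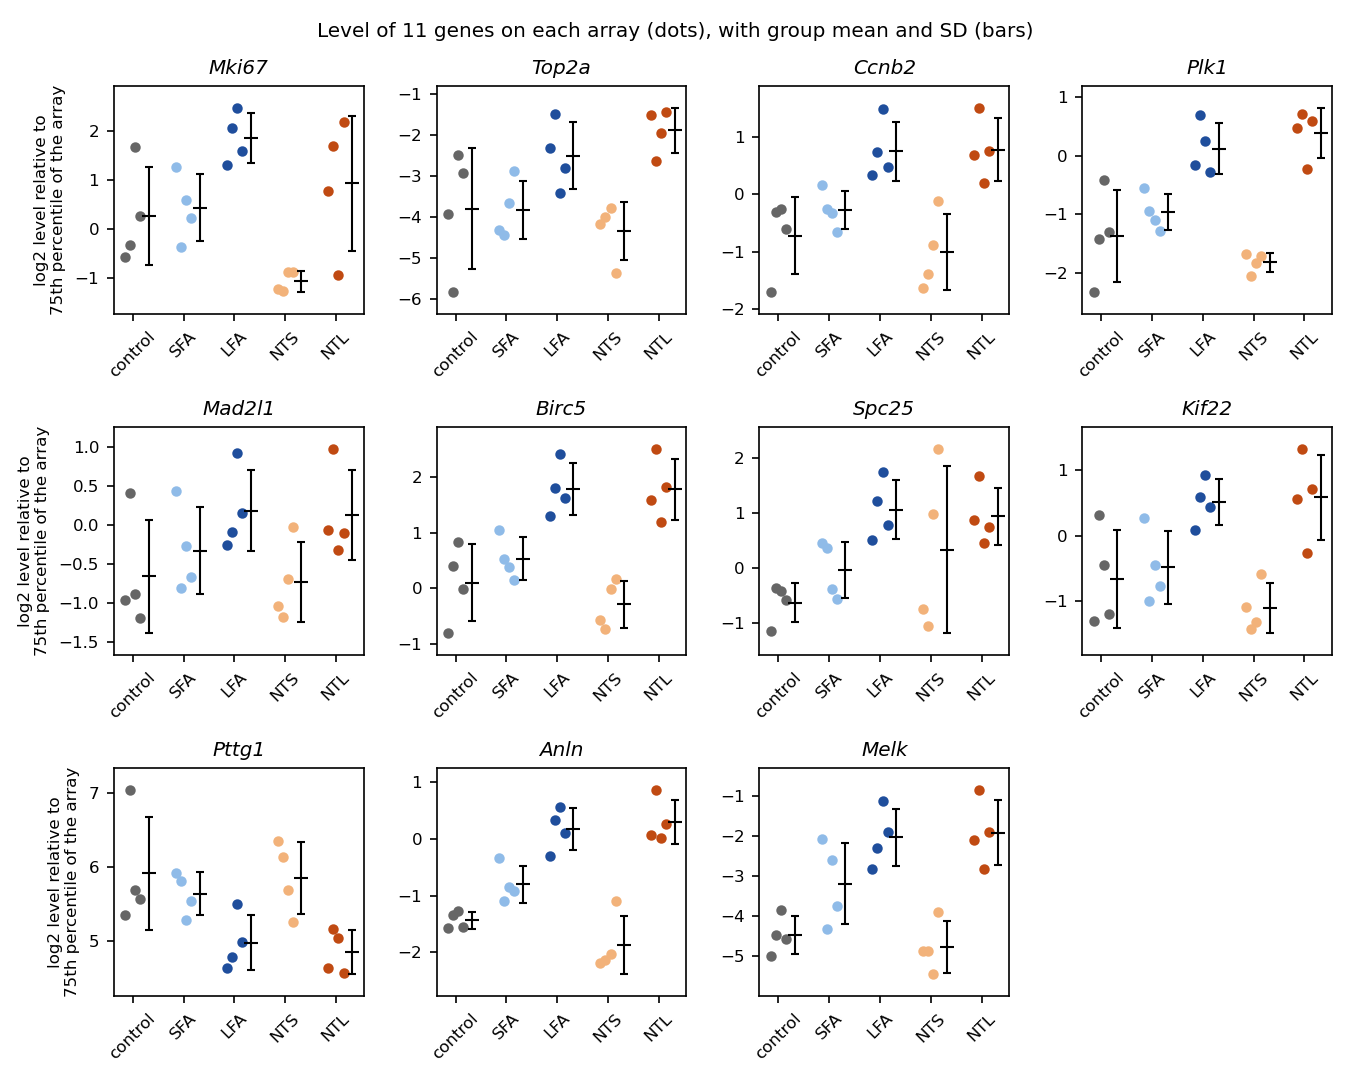
Log2 level relative to the array's 75th percentile for 11 genes on each array (dots), by group, with the group mean and SD (n = 4). Anln, Plk1, Ccnb2, and Birc5 have LFA and NTL arrays above all other arrays, and Pttg1 has its lowest means in LFA and NTL.

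Without a test of size, 22 of the 40 genes had every LFA array above every control array (4.56% of all probes), and 25 had every NTL array above every control array (6.36%). Set against all 12 other arrays, the 8 long-fiber arrays were all higher for 7 genes (1.42% of all probes), namely Ccnb2, Plk1, Nek2, Birc5, Cenpa, Cdca5, and Anln. Cenpa was among them with changes under 2-fold, from -0.21 to -0.04 in LFA and -0.14 to 0.26 in NTL against -1.16 to -0.55 in control.

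Short asbestos gave 0 calls among the 40 genes in limma, as it did over all probes (0%). At an unadjusted p under 0.05, 9 genes were higher in SFA than in control (1.09% of all probes) and 0 lower (1.21%). The 9 were Ccna2, Ccnb1, Melk, Bub1, Kif4, Nusap1, Kif20a, Ect2, and Anln, with the largest changes in Melk (1.29), Kif20a (1.28), and Ect2 (1.18). The median change was 0.49, and 36 of the 40 values were above 0, where 38.7% of all probes were. The within-slide medians differed in sign, 0.97 on slide 2 and -0.18 on slide 3. SFA replicate 1 was above its group mean for 35 genes (50.7% of all probes) and above the highest control for 26 (15.0%), and SFA replicate 4 for 8 and 6 (49% and 8.36% of all probes).

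Short nanotubes likewise gave 0 calls in limma (0% of all probes). At an unadjusted p under 0.05, 0 genes were higher (1.64% of all probes) and 2 lower (1.87%), Mki67 at -1.33 and Kif23 at -1.12, and for both genes all 4 NTS arrays lay below all 4 control arrays (0.887% of all probes). The median change was -0.27, and 10 of 40 values were above 0 (43.1% of all probes). NTS replicates 1 and 2 exceeded the highest control for 0 genes (19.3% and 20.8% of all probes), and replicates 3 and 4 for 7 and 9 (22.1% and 15.7% of all probes).

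Long and short fibers of a material were then compared. NTL was called higher than NTS in 28 of the 40 genes and lower in 0, against 4.91% and 2.65% of all probes. The median log2 difference was 1.68. Melk (2.85), Bub1 (2.59), Cdk1 (2.43), and Top2a (2.43) had the largest differences fitted. In NTS Melk and Bub1 were each well above background on 1 of 4 arrays, and Cdk1 and Top2a on 3 of 4. All 6 cytokinesis genes were called higher in NTL, Kif23 at 1.97 and Racgap1 at 1.15 included. The 12 not called were Cks2, Foxm1, Aurka, Mad2l1, Cenpa, Ndc80, Spc25, Kif11, Kif2c, Nusap1, Hmmr, and Pttg1. Mki67 was called here, at 2.0 (SE 0.57; adjusted p = 0.0372, limma), in a comparison in which its NTS arrays were low. The count was 17 with normexp background correction and 16 with slide as a block, given without the share of all probes called under those settings.

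LFA and SFA differed in 0 of the 40 genes by the same rule, where 1.03% of all probes were called higher and 0.133% lower. At an unadjusted p under 0.05, 22 genes were higher in LFA (4.77% of all probes) and 0 lower (7.80%). The median difference was 0.87, being 0.38 on slide 2 and 1.15 on slide 3. Nek2 (1.63), Mki67 (1.42), Top2a (1.32), and Birc5 (1.25; adjusted p = 0.136, limma) had the largest values. With the index of 5′ against 3′ signal, a measure of RNA integrity, as a covariate, Birc5 was called, at 1.22 (adjusted p = 0.0429, limma). Against control the same covariate gave 25 calls in LFA and 28 in NTL. Those counts stand without the share of all probes called with that covariate. The index ran from -2.19 to -0.91 over the arrays. SFA replicate 1, LFA replicate 3, and NTL replicate 2 had the lowest index of their groups and the highest mean of the 40 genes. Control did not show this. In NTS, replicate 4 had the lowest index and a mean of 0.04, just under the 0.08 of replicate 3, with replicates 1 and 2 at -0.46 and -0.55. The part of RNA integrity in the result was not tested.

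The difference between the length effects of asbestos and nanotubes was tested directly and gave 0 calls in limma over the 40 genes and 0 over all probes. At an unadjusted p under 0.05, 9 genes had a smaller length effect in asbestos (1.81% of all probes), with Cdk1 (-1.61), Melk (-1.69), and Bub1 (-1.47) farthest from 0, and 0 had a larger one (1.65%). SFA lay above NTS by a median of 0.72 over the 40 genes, with 0 calls in limma (0% of all probes) and 17 genes higher at an unadjusted p under 0.05 (3.05%).

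LFA and NTL, given at 25 and 5 µg per mouse, showed 0 calls between them in limma (0% of all probes) and 0 of the 40 genes at an unadjusted p under 0.05 in either direction (1.54% of all probes). The median difference was -0.08, and 35 genes differed by less than 0.5 on the log2 scale. All 40 intervals (95%) held 0, and 23 lay wholly between -1 and 1, so that a 2-fold difference lay outside them for those genes and inside or at the edge of the interval for the other 17. Kif2c (-1.16) and Mki67 (0.93) had the values farthest from 0. In every array of NTL Bub1b was above every array of LFA, the only gene of the 40 whose groups did not overlap in either direction. Of all probes, 0.559% had every NTL array above every LFA array, and 0.388% had every NTL array below.

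**Figure D4:**
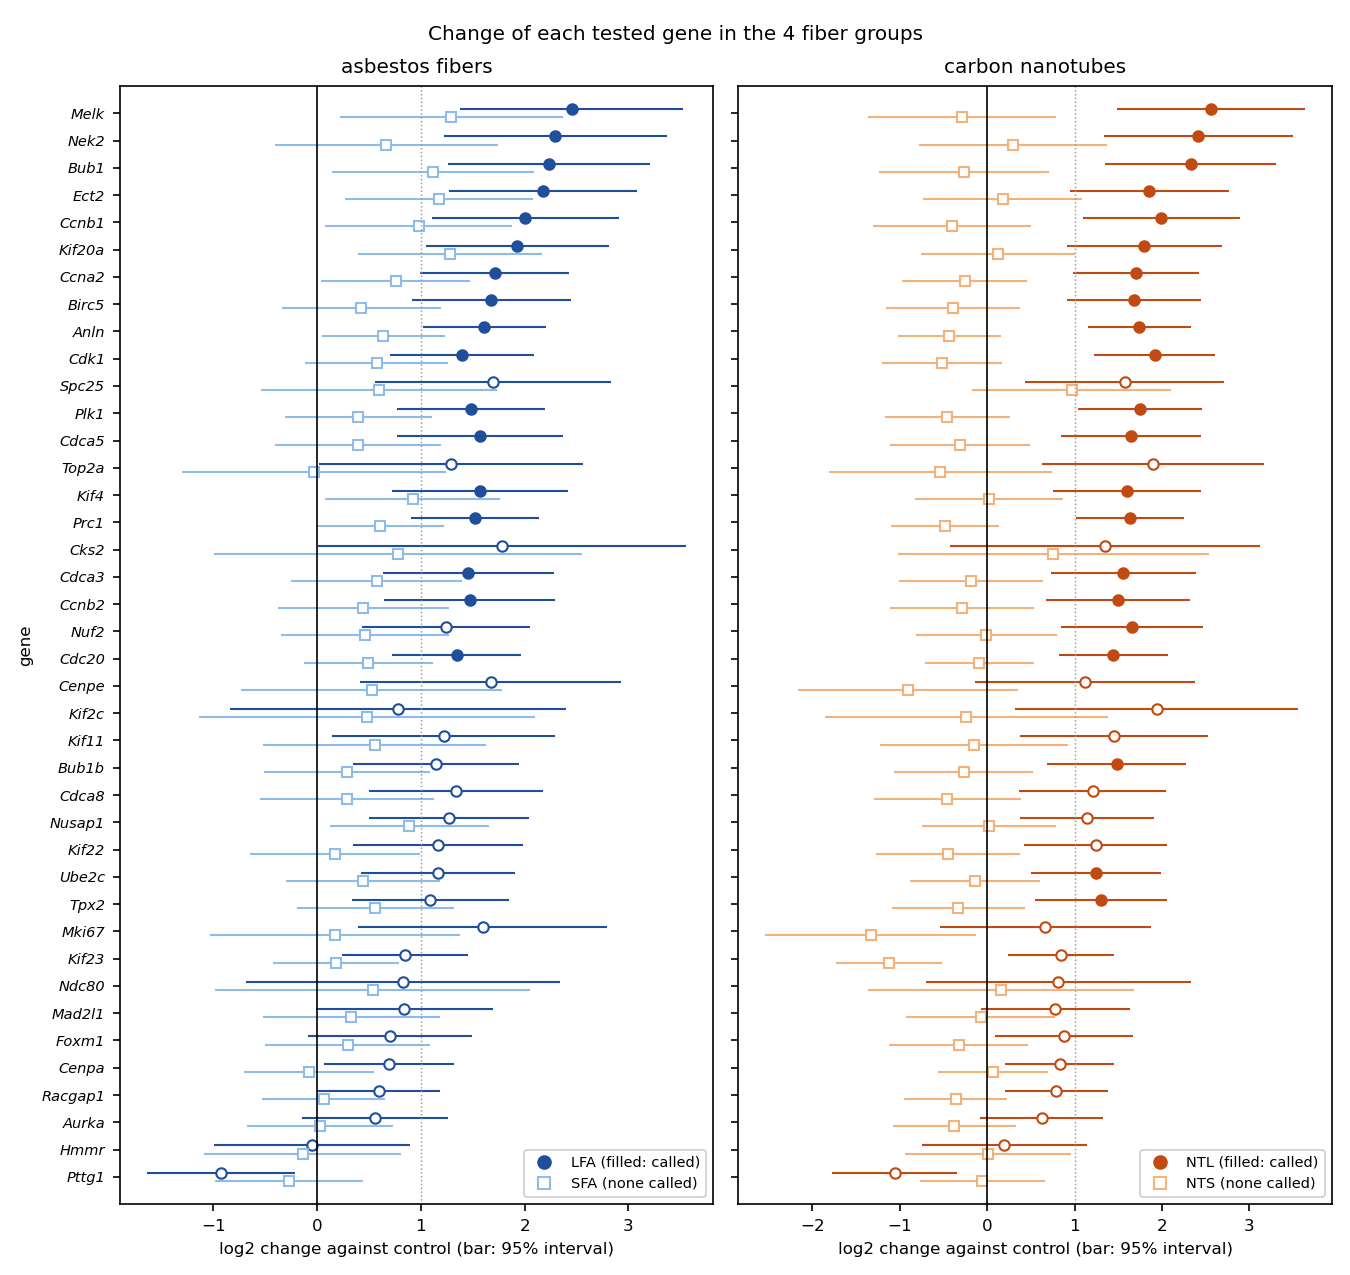
Log2 change with its 95% interval for the 40 tested genes, LFA and SFA against control in the left panel and NTL and NTS against control in the right, with filled markers for called genes and a dotted line at 1. Filled markers stand only in LFA (17 genes) and NTL (21 genes).

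Of the 44 genes, 15 had more than 1 probe, and 13 of their 20 other probes were tested. Birc5's other probes were at 1.58 and 1.33 in LFA, neither called (adjusted p = 0.0643 and 0.0735, limma), and at 2.0 and 1.78 in NTL, both called. Ccnb1's other probes were at 1.83 and 0.73 in LFA, neither called, and at 2.23 and 1.04 in NTL, of which the former was called. Mki67's other probe was at 1.55 in LFA and 0.55 in NTL, neither called. Tpx2's other probe, well above background on 6 arrays, went the other way, at -1.20 and -0.40, and the mean of both probes of Tpx2 was -0.06 in LFA and 0.45 in NTL, where the call was lost. A test over the 4 fiber groups together, with a 2-fold change in at least 1 of them, called 25 of the 40 genes (5.89% of all probes).

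Other cell cycle genes were listed by phase. Of 55 other tested mitosis genes, 13 were called higher in LFA and 20 in NTL, with medians of 1.02 and 1.03. They included Pbk, a mitotic kinase, at 2.20 and 2.29, and Aspm, a spindle pole protein, at 2.05 and 2.23. Kif14, a kinesin of cytokinesis, was at -0.22 and -0.15 and Troap at -0.97 and -0.35, neither called. DNA synthesis genes gave 0 and 3 calls of 29, with medians of 0.52 and 0.50. Cdc6, which loads the replicative helicase, was at 0.94 in LFA and rose by 1.29 in NTL, whereas Tyms, thymidylate synthase, was at -0.94 and -0.51. Mcm10 had the highest values of the list, 2.48 and 1.65, and Cdc45 the lowest, -1.08 and -0.56, neither called. G1 cyclins, CDKs, and E2F genes gave 0 and 2 calls of 15, with Rbl1 (p107) at 1.39 in LFA and called in NTL at 1.54. Myc was at 1.32 and 1.44 and E2f7 at -1.08 and -0.60, neither called. The list of CDK inhibitors and quiescence genes gave 0 calls of 12 in each. It includes Rbl2, E2f4, and DREAM subunits, and also Mybl2, which encodes B-MYB, named above as a factor of late-cycle transcription. Cdkn1a (p21), an inhibitor of CDKs, was at 0.93 and 0.94, and Cdkn2b at 0.90 and 0.92. Cdkn1c was at -0.85 in LFA and -0.99 in NTL (adjusted p = 0.038, limma), under the 2-fold minimum, and E2f4 at -0.95 and -0.38. The 13 subunits of the anaphase-promoting complex gave 0 calls in each, with medians of -0.32 and -0.30. The differences between lists were not tested.

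**Figure D5:**
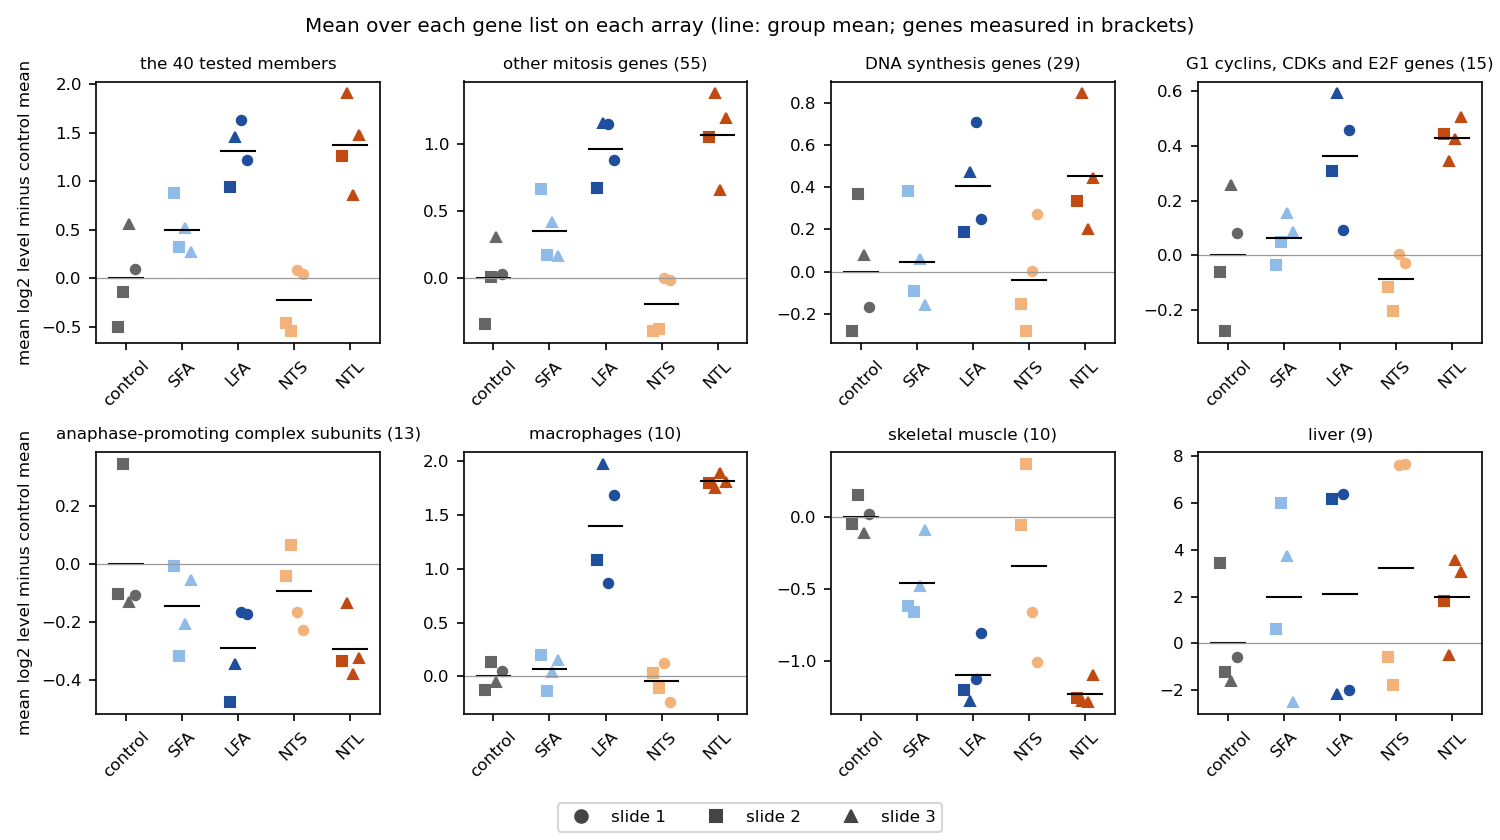
Mean over the tested genes of each list, as a log2 level relative to the control mean, on each of the 20 arrays by group, with the marker shape giving the slide. On average over a group's arrays the mitosis lists and macrophage markers are highest and skeletal muscle markers lowest in LFA and NTL, and the liver list varies among arrays of every group.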

How the data were processed

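The authors scanned 1-color arrays and deposited the output of Agilent Feature Extraction 10.7.3.1 (submitters' processing notes), 1 file per array with intensities from which the software had subtracted the background. They also deposited log2 group means from GeneSpring, which allowed medians as an alternative but no test. Outlier spots were left out (92 to 204 per array), 59305 spots were averaged into 55681 probes, and log2 intensity was set relative to each array's 75th percentile. Probes well above background on at least 4 of 20 arrays (36930) were fitted by limma 3.58.1 in R 4.3.3 (data.table package, version 1.17.8) with a mean per group over all 20 arrays. A call needed a Benjamini-Hochberg adjusted p under 0.05 and a 2-fold change. The number of arrays limits the precision. Mice were separate animals.

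The genes and lists were chosen with earlier results of these data known. All 44 genes could be named, and values on every array were given for Mki67, Top2a, the brightest gene of each role, and those with the largest and smallest changes. Alternatives were quantile normalization, normexp background correction (offset 50), other filters, slide or replicate number as a block, array brightness as a covariate, fitting only the groups compared, probe averages, the methods' test with unequal variances, and leaving out each array. The index of 5′ against 3′ signal as a covariate and leaving out NTS replicates 3 and 4 were chosen after seeing the data. No label says that replicate numbers pair the samples, so they entered only as an alternative block. The fit was tested on simulated data. Promoters were RefSeq's (GRCm38.p6), searched with Python 3.11.15.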

Additional observations from a re-analysis of the deposited data

Results flagged for a closer look

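In groups of 4 arrays, 10 of 225 sets (4.44%) of the 44 genes and their mean in the 5 groups had an array far apart from its other 3, and chance alone sets apart about 1 in 20. All values are log2 levels relative to the array's 75th percentile. Cdk1 in SFA replicate 1 was at -2.65, where the other SFA arrays ran from -3.20 to -3.13. Tpx2 in NTS replicate 4 was at -3.40, below the -2.85 to -2.78 of the others. Bub1b in control replicate 1 was at -3.71 against -3.38 to -3.33. In NTL replicate 3 Prc1 was at -0.15 against 0.30 to 0.38, and in NTS replicate 4 Anln was at -1.10 against -2.19 to -2.04.

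SFA replicate 2 stood apart for 4 genes. Cenpa was at -2.08 there, against -0.67 to -0.44 on the other SFA arrays. Ttk at -6.55, Aurkb at -6.07, and Ncapg at -6.51 were the highest of their group, but none of these 3 was well above background on any array. The 75th percentile of signal was 338 on SFA replicate 2 and 515 to 587 on the other SFA arrays. Control replicate 2, with the lowest 75th percentile, 292, was also the highest of its group for these 3 genes (-6.37, -6.37, and -6.38). The part of array brightness in these values was not tested. Cenpf in LFA replicate 3 was at -2.85, well above background, while the other LFA arrays ran from -7.40 to -6.74.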

How the results depend on the processing

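The counts of called genes and the median changes stayed within 1.5 times of the values given or within the replicate spread in 437 recomputed values and not in 10. Of these 10, the 7 and 8 calls in LFA without control replicate 1 and without LFA replicate 2 are given with the single arrays left out. With normexp background correction the median change was 0.82 in LFA and 0.76 in NTL, 17 genes were called in NTL against NTS, and 15 over any fiber group. Slide as a block gave 16 in NTL against NTS, and array brightness as a covariate 15 over any fiber group. Fitting only the groups compared gave 9 calls in LFA. The index of 5′ against 3′ signal gave 1 in LFA against SFA. Counts under other settings are given without the share of all probes called under the same setting. The causes were not tested.

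Leaving out single arrays gave 7 to 22 calls in LFA (7 without control replicate 1, 8 without LFA replicate 2), 15 to 25 in NTL, 20 to 31 in NTL against NTS, and 19 to 29 over any fiber group. It gave 0 to 0 in the other comparisons. Medians ran from 1.18 to 1.62 in LFA, 1.32 to 1.68 in NTL, 0.30 to 0.68 in SFA, and -0.47 to -0.09 in NTS. No label says that replicate numbers pair the samples. Of 40 same-numbered pairs 14 had a correlation over 0.1, with a range from -0.68 to 0.69. Differently numbered pairs were not set beside them, so this cannot show whether the samples were paired. The replicate block gave 15 calls in LFA, 19 in NTL, 26 in NTL against NTS, and 20 over any fiber group, and left 0 in the others.

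Signs turned in 13 values of single genes. Hmmr in LFA was at 0.034 with quantile normalization, 0.0077 with slide as a block, and 0.39 with the 5′ to 3′ index, and ran from -0.45 to 0.31 when single arrays were left out (above 0 without control replicate 3 or 4 or LFA replicate 3 or 4). Hmmr in NTL was at -0.41 with brightness as a covariate and ran from -0.20 to 0.56 (below 0 without control replicate 2 or NTL replicate 1). Ndc80 in NTL was at -8.57e-05 and Kif2c in LFA at -0.19 with normexp, and Tpx2 in LFA at -0.055 as a mean of probes. Calls from the authors' table were not run, because it holds group means. With 4 mice per group and 14 genes dim on at least 1 array, small changes of dim genes were not detectable.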
